A study of Drosophila melanogaster with 3 samples.

Results

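The intergenic peaks of tagged Broad away from promoters were the optimal peaks on nuclear chromosomes whose summit lay in no annotated gene body and more than 1000 bp from every annotated transcription start site (TSS). The rule took 247 of the 2510 nuclear peaks (9.84%, exact 95% interval 8.7 to 11.1), and the optimal list held 2533 peaks in all, 23 of them mitochondrial. The other nuclear peaks were 690 gene-body peaks, with summits inside genes and more than 1000 bp from any TSS, and 1573 promoter peaks, with summits within 1000 bp of a TSS. Chromatin came from whole wandering larvae of Drosophila melanogaster, in the third instar, of both sexes together. The larvae were of a transgenic line that makes a fusion of GFP to the C-terminal end of br-RE, and the fusion was recovered with an antibody against GFP after the chromatin had been sheared to 200 to 800 bp. The 3 biological replicates, numbered 2, 3 and 4 in the labels, form a single group, so no condition was set against another. Which zinc fingers the tagged form carries was not established here, the tag is on 1 form of a gene with several, and a control library was not analysed here. In whole larvae, few cells with a bound site and weak binding in many cells cannot be told apart.

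Broad is a family of zinc finger proteins, made from 1 gene by alternative splicing, that is induced by the moulting hormone ecdysone and is needed for larval tissues to enter metamorphosis. Each protein joins a BTB domain, which pairs with other BTB domains, to a pair of zinc fingers that read DNA. Sites between genes and away from their starts are where many Drosophila enhancers lie, which can act on a gene over long distances and past closer genes. A peak between genes is therefore described below by its neighbours, and no target gene was assigned.

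The summit sequences of the 6 strongest intergenic peaks outside 1 chromosome arm that is not printed here show what such sites look like, in order of signal. Each runs 100 bp to either side of the summit on the dm6 assembly, is named by the protein-coding genes on both sides, and was read from the RefSeq copy of the assembly. Capitals mark the word TCAGTG on either strand, which 62 of the 247 intergenic peaks held within 100 bp of the summit (25.1%, exact 95% interval 19.8 to 31.0).
COX7AL2 to CG31668, chr2L:2202295-2202495, plus strand: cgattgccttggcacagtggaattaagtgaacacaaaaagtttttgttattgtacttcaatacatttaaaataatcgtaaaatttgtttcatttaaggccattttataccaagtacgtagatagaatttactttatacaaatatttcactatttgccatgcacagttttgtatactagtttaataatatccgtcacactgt
CG43245 to CG12523, chr3L:10776456-10776656, plus strand: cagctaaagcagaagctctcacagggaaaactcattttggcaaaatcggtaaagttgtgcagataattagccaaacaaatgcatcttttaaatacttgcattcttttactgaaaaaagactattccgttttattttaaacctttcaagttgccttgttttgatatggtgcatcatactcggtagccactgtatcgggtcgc
CG7320 to CheA75a, chr3L:18235915-18236115, plus strand: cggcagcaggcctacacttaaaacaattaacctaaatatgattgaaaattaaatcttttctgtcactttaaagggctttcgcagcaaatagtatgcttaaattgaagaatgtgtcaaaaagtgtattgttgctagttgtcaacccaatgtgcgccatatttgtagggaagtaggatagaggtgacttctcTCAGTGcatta
yata to kay, chr3R:29763251-29763451, plus strand: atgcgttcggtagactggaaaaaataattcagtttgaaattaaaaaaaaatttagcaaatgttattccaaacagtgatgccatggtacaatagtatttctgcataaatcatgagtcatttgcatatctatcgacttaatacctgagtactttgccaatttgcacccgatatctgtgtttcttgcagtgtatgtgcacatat
COX7AL2 to CG31668, chr2L:2199287-2199487, plus strand: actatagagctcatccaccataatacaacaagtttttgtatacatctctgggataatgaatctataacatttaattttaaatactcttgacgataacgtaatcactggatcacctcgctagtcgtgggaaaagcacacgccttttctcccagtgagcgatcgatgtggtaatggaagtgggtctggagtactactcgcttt
E(spl)mbeta-HLH to E(spl)malpha-BFM, chr3R:26009010-26009210, plus strand: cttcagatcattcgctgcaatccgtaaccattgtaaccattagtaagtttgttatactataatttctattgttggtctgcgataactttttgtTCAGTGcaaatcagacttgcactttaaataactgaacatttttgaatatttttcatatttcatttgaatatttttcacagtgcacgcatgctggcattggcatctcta
Of these 6 windows, 1 on 3L and 1 on 3R held the word, and the other windows held none of it. Their share of G and C ran from 28.9% to 40.3%, and none had a near copy elsewhere in the assembly.

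Of the 30 copies of the longer word TCTCAGTG within 200 bp of the summits of intergenic peaks, 29 read away from the summit, 21 of them at 26 to 125 bp from it. The 12 strongest such peaks outside the arm not printed here are aligned on the word, which stands in capitals, and each is written on the strand on which the word reads away from the summit. They show the sequence on both sides of the word.
CG7320 to CheA75a, chr3L:18236077-18236137, plus strand: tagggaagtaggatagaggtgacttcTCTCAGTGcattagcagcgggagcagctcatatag
CG11550 to CG42693, chr3R:31698377-31698437, plus strand: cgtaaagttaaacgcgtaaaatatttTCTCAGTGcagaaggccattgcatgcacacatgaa
glec to lsn, chr3R:21859585-21859645, minus strand: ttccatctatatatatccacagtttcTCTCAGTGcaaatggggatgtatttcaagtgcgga
Pex7 to hry, chr3L:8656708-8656768, minus strand: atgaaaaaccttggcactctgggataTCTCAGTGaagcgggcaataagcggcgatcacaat
hng3 to CG13898, chr3L:762566-762626, plus strand: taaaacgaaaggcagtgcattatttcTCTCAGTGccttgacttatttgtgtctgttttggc
Wnt6 to Wnt10, chr2L:7358106-7358166, minus strand: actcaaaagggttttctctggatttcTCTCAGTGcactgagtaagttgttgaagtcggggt
CG4218 to CG3473, chr2L:14554127-14554187, plus strand: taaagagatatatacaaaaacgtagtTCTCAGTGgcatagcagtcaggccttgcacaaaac
dpp to Slh, chr2L:2486924-2486984, minus strand: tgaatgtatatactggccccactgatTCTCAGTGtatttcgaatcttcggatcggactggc
CG10357 to CG14974, chr3L:3617321-3617381, minus strand: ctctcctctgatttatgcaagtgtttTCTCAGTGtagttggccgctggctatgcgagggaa
CG6163 to CG11726, chr3L:11380336-11380396, plus strand: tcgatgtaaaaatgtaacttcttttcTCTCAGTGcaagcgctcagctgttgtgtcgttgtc
Dr to CG7567, chr3R:29567079-29567139, minus strand: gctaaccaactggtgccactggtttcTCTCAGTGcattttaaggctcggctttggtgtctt
Ids to sty, chr3L:3399254-3399314, minus strand: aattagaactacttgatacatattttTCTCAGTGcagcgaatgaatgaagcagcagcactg
The bases beside the word were examined after the windows had been searched, so their shares are a description. Of the 29 copies of TCTCAGTG that read away from a summit, 26 had a T at the second base before the word (89.7%). This share was 84.1% in gene-body peaks, 64.3% in promoter peaks and 87.5% in intergenic regions of the pooled list below the optimal peaks. It was 59.2% of the 461 copies that read away from the centres of a grid of windows over intergenic sequence. The bases CA followed 10 of the 29 copies (34.5%). They followed 31.8% of such copies in gene-body peaks, 21.4% in promoter peaks, 39.7% in the weaker intergenic regions and 23.6% in the grid. Some weaker intergenic regions lie so close to intergenic peaks that their windows overlap.

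TCAGTG and its longer forms were more frequent at the summits of intergenic peaks than in the sequence beside them. These words were picked because of their share in the intergenic peaks, so their values there are a description. TCTCAGTG was in 22 of 247 summit windows (8.91%, exact 95% interval 5.67 to 13.2), against 4.78% of gene-body peaks, 2.16% of promoter peaks, 1.01% of windows 1000 bp to either side and 0.661% of 72184 windows in a 500-bp grid over intergenic sequence that met the same rule. TCAGTG alone was in 25.1% of intergenic peaks, 16.5% of gene-body peaks, 13.9% of promoter peaks, 7.69% of the flanking windows and 7.78% of the grid. TCAGTGCA, which extends the word at its other end, was in 8.91% of intergenic peaks and 0.81% of the flanking windows. TCTCAGTG and TCAGTGCA both hold TCAGTG, so the 3 values are not independent, and all words were sought on both strands. The core TCAGT is known in Drosophila as part of the initiator element at the starts of many genes. Within 200 bp of the summits of promoter peaks, 21 of 420 copies of TCAGTG (5.0%) lay within 10 bp of a TSS on their strand. Of the 47 copies of TCTCAGTG there, 0 did, but so few copies cannot show a share below the 5.0% of TCAGTG. Whether the words serve as initiators at intergenic peaks was not tested.

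Each replicate's own 2533 strongest regions are called its top regions below. They include most of the sites from which the words were picked, so their values too are a description. TCTCAGTG was in 8.2%, 7.69% and 7.63% of the intergenic top regions of replicates 2, 3 and 4 (7.84% ± 0.314, SD, n = 3), against 4.18%, 4.17% and 5.3% of their gene-body top regions (4.55% ± 0.651, SD, n = 3). TCAGTG was in 23.4% ± 2.22 of intergenic and 16.2% ± 0.678 of gene-body top regions (SD, n = 3 each). Intergenic regions of the pooled list below the optimal peaks share no peak with the members, but some of their summits lie close to those of members. They held TCTCAGTG in 2.53% of 3758 summit windows, against 0.945% of windows 1000 bp to either side. In these regions TCAGTG was in 12.9% of summit windows, against 9.43% of the windows beside them. TCAGTGCA was in 2.63% against 1.16%. These differences were smaller than those at the intergenic peaks from which the words were picked.

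The direction of the word followed the side of the summit on which it lay. Within 200 bp of the summits of intergenic peaks, 29 of 30 copies of TCTCAGTG read away from the summit (96.7%, exact 95% interval 82.8 to 99.9). This share was 89.8% of 49 copies in gene-body peaks, 89.4% of 47 in promoter peaks, 80.0% of 170 in the weaker intergenic regions and 47.7% of 966 in the grid. For TCAGTG it was 92 of 113 copies in intergenic peaks (81.4%, exact 95% interval 73.0 to 88.1), 74.0% of 223 in gene-body peaks, 62.6% of 420 in promoter peaks, 61.4% of 973 in the weaker intergenic regions, 39 of 78 copies in windows 1000 bp to either side and 49.3% of 11955 in the grid. The replicates' own intergenic top regions gave 75.7% of 103 copies in replicate 2, 83.1% of 65 in replicate 3 and 79.1% of 129 in replicate 4. Windows reaching 200 bp around some weaker intergenic regions overlap those of intergenic peaks, so these sets are not fully separate. The copies that read away in intergenic peaks lay a median of 77.0 bp from the summit, and 59 of the 113 copies (52.2%) read away at 26 to 125 bp from it, against 24.9% in the grid. In 10 intergenic peaks (4.05%) copies read away on both sides of the summit. The 113 copies of TCAGTG lay in 91 peaks and the 30 of TCTCAGTG in 26. Copies of 1 peak are not independent, so the intervals on these shares may be too narrow.

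**Figure D1:**
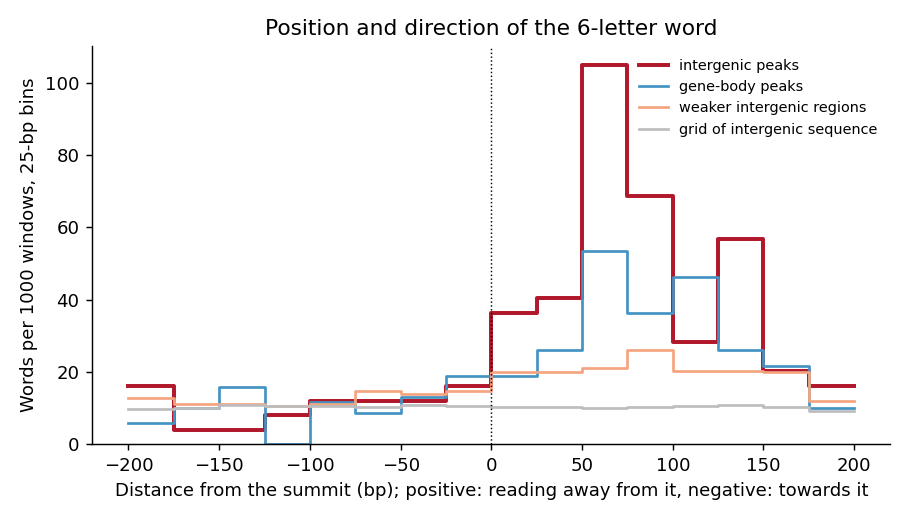
Number of copies of TCAGTG per 1000 windows (y axis) by distance from the summit in 25-bp bins (x axis), positive where the word reads away from the summit and negative where it reads towards it, for intergenic peaks, gene-body peaks, weaker intergenic regions of the pooled list and the grid of intergenic sequence. The intergenic peaks reach 105 copies per 1000 peaks at 50 to 75 bp on the positive side, the negative side stays at 16.2 or below, and the grid is flat.

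The 26 intergenic peaks with TCTCAGTG within 200 bp had a median signal of 147 and 12 of them (46.2%) were among the top regions of all 3 replicates. The other 221 had a median signal of 121, and 74 of them (33.5%) lay in the top regions of all 3. Over all nuclear optimal peaks this share was 38.5%. The word was picked from these same peaks, 26 is a small number, and the difference was not tested. The signal is the authors' own value per peak and was used only within 1 list. ATATAAG, also picked from the members, was in 9.31% of intergenic peaks and 2.02% of the flanking windows, and 13 of its 33 copies (39.4%) read away from the summit.

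Among the optimal peaks, none of the words known for Broad had a higher share in intergenic peaks than in gene-body peaks. CTATTT, a word of Broad isoform Z2, was in 14.2% of intergenic peaks (exact 95% interval 10.1 to 19.2) and 14.8% of flanking windows, against 19.6% of gene-body and 21.7% of promoter peaks. AAACTA, a word of isoform Z3, was in 21.1% (exact 95% interval 16.1 to 26.7), against 21.4% of gene-body peaks, 20.5% of promoter peaks and 15.0% of flanking windows, and in the replicates in 21.0% ± 3.27 of intergenic and 19.4% ± 0.766 of gene-body top regions (SD, n = 3 each). GTAAACA, a word of isoform Z4 that is also the forkhead core, was in 2.02% of intergenic peaks, against 7.1% of gene-body peaks and 3.85% of flanking windows. In the replicates it was in 3.49% ± 0.666 of intergenic and 6.12% ± 1.16 of gene-body top regions (SD, n = 3 each) and was lower between genes in 3 of 3. The exact two-sided sign-flip permutation test over 3 replicates gave p = 0.25, the smallest it can give with 3, and an adjusted p of 0.75 over 18 words, so no word could pass. TAGACAA, taken as a word of isoform Z1, was in 1.62% of intergenic peaks (exact 95% interval 0.443 to 4.09), 1.88% of gene-body peaks, 2.16% of promoter peaks and 2.83% of flanking windows. GAGAGAG, the word of GAGA factor, which keeps chromatin open, was in 2.02% of intergenic peaks, 5.36% of gene-body peaks and 6.23% of promoter peaks. TATCGATA, the DNA replication-related element of promoters, was in 2 intergenic peaks (0.81%) and in 5.09% of promoter peaks. Words of the nuclear receptors (AGGTCA, 2.02%), AP-1 (TGACTCA, 2.02%), GATA factors (TGATAAG, 4.45%), TEAD factors (CATTCC, 6.48%) and homeodomains (TAATTA, 11.7%) had flank shares of 4.86%, 1.62%, 3.24%, 11.9% and 12.6% in the same order. The summit windows of intergenic peaks averaged 36.8% G and C, against 41.4% in the windows 1000 bp to either side of them, 36.9% in gene-body peaks and 36.4% in promoter peaks. The intergenic top regions of the replicates averaged 37.2% ± 1.6 G and C, and their gene-body top regions 37.3% ± 2.45 (SD, n = 3 each).

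The signal of intergenic peaks lay in the range of the other classes. Their median signal was 122 (quartiles 104 and 163, range 88.5 to 858), against 128 for gene-body peaks and 128 for promoter peaks. They were 50 of the strongest 25% of nuclear peaks (7.97%), 61 of the next (9.71%), 77 of the third (12.3%) and 59 of the weakest (9.39%). Further down the pooled list the intergenic share was 10.1% of regions ranked 2534 to 5000, 11.3% of those ranked 5001 to 10000, 16.0% of those ranked 10001 to 20000 and 18.2% of those ranked 20001 to 27389. The same rule took 256 of 2513 nuclear top regions of replicate 2 (10.2%), 169 of 2501 of replicate 3 (6.76%) and 249 of 2533 of replicate 4 (9.83%), or 8.92% ± 1.89 (SD, n = 3). Replicate 3 was the low one.

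Of the 247 intergenic peaks, 86 were held by the top regions of all 3 replicates (34.8%, exact 95% interval 28.9 to 41.1), where the share over all nuclear optimal peaks was 38.5%. Another 85 lay in the top regions of 2 replicates, 67 in those of 1 and 9 in those of none. The share of all 3 was 39.0% for gene-body peaks and 38.8% for promoter peaks. It was 92.0% for intergenic peaks in the strongest 25% of nuclear peaks and 3.39% in the weakest, where all nuclear peaks gave 91.9% and 1.59%. When all 30000 regions of each replicate counted, 222 of the 247 were listed in all 3 replicates (89.9%, exact 95% interval 85.4 to 93.3), where the share over all nuclear optimal peaks was 82.9%, and 0 were listed in none. Gene-body peaks were at 87.7% and promoter peaks at 79.7% by this count.

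The replicates recovered intergenic peaks unevenly. The top regions of replicate 2 held 193 of them (78.1%), those of replicate 3 held 139 (56.3%) and those of replicate 4 held 163 (66.0%), a mean of 66.8% ± 11.0, against 69.4% ± 8.2 for gene-body peaks and 68.8% ± 3.35 for promoter peaks (SD, n = 3 each). Replicate 3 had the fewest intergenic and gene-body peaks and the most promoter peaks (72.5%). The difference of intergenic from gene-body peaks was −2.57 points and that from promoter peaks −1.96 points. The exact two-sided sign-flip permutation test gave p = 0.5 and p = 0.75 (adjusted over 5 tests 0.833 and 0.938). Its smallest p with 3 replicates is 0.25, so no difference could pass and the test cannot show that the classes were recovered alike. Among counterparts in the full lists, the median rank of intergenic peaks was 1258, 1936 and 1441 in replicates 2, 3 and 4, against 1574, 1159 and 1022 for promoter peaks. Without replicate 3, 131 intergenic peaks (53.0%) lay in the top regions of both other replicates.

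**Figure D2:**
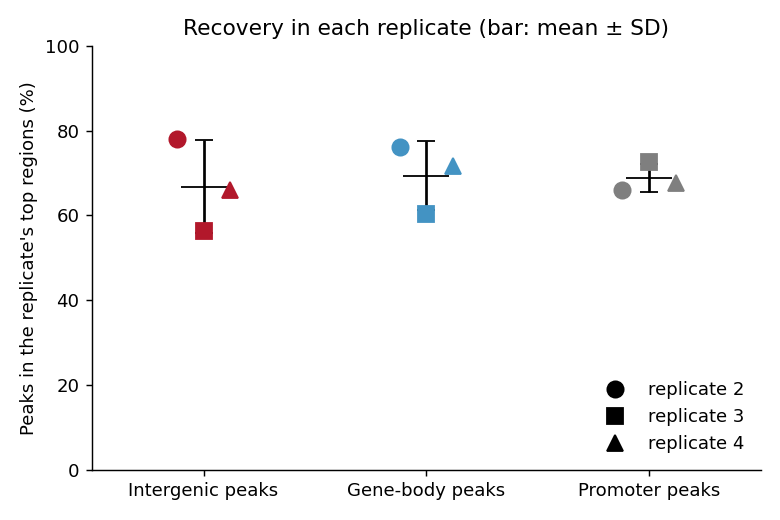
Share of intergenic, gene-body and promoter peaks (x axis) that lay within 200 bp of a summit among the top regions of each replicate (y axis, percent), 1 symbol per replicate, with the mean and SD over 3 replicates as a bar. Replicate 3 is lowest for intergenic peaks at 56.3% and highest for promoter peaks at 72.5%.

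The strongest intergenic peak lay between Su(z)2, a Polycomb group gene, and CG13323, on 2R at 13035183 to 13035525, 11923 bp from the nearest TSS. Its signal was 858 (rank 17 of the optimal list), and it ranked 21, 41 and 10 in replicates 2, 3 and 4. The next (2L, 2202197 to 2202583, signal 712) lay between COX7AL2 and CG31668, a gap that held 3 members, and ranked 27, 39 and 37. The next (3L, 10776400 to 10776702, signal 638) lay between CG43245 and CG12523 and ranked 31, 76 and 28. These 3 stood apart from the rest, since the fourth had a signal of 409 (rank 103, between CG3092 and yip3). Each of the 23 strongest intergenic peaks had a counterpart at rank 1712 or better in every replicate.

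The rest of the 25 strongest lay beside genes of many kinds. A peak 2644 bp from the TSS of kay, the Drosophila Fos gene (3R, 29763268 to 29763476), had a signal of 355 and ranked 212, 172 and 131 in replicates 2, 3 and 4. A peak between E(spl)mbeta-HLH and E(spl)malpha-BFM, a repressor gene and a Bearded family gene that answer to Notch (3R, 26009026 to 26009233), had a signal of 345 and ranked 105, 179 and 304. One lay 3700 bp from the TSS of ex, an upstream gene of the Hippo growth pathway (2L, 427427 to 427610, signal 257), and one 7298 bp from the TSS of Ote, between it and fj, which encodes a Golgi kinase of the Fat and Dachsous cadherins (2R, 18269750 to 18270000, signal 320). One lay 25121 bp from Tollo, which encodes a Toll family receptor (3L, 15260663 to 15260902, signal 265), and one between ppk, a sodium channel gene, and elB, a zinc finger gene of appendage development (2L, 14386538 to 14386941, signal 244). Another, with a signal of 230, lay between Pex7 and hry, the gene of the repressor Hairy (3L, 8656615 to 8657018). Of the others, some lay between CG7320 and CheA75a (signal 359), CG11550 and CG42693 (308), Gr93d and glec (291), Sin1 and Achl (274), and Obp56g and Obp56h (263). Further ones lay between glec and lsn (252), CG6168 and CG6163 (248), and CG4218 and CG3473 (237). The peak between Sol1 and Cyp9f2 (233) ranked 481 and 283 in replicates 2 and 3, and no region of replicate 4 had a summit within 200 bp of it.

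Intergenic peaks were spread widely around genes. The nearest TSS was a median of 3728 bp away (quartiles 1886 and 7308, range 1003 to 32625), 94 peaks were more than 5000 bp and 33 more than 10000 bp from any TSS. It belonged to a protein-coding gene for 150 peaks, to a noncoding RNA gene for 90 and to a tRNA gene for 7. The gap between genes was a median of 12338 bp long. Genes on both sides pointed away from the gap for 60 peaks (24.3%, against 19.0% of the eligible sequence), in 1 direction for 116 (47.0% against 52.9%) and towards the gap for 71 (28.7% against 28.0%). The edge of the gap nearer to the summit was the 5′ side of a gene for 111 peaks (44.9%, exact 95% interval 38.6 to 51.4). Strength differed little with distance. The median signal was 134 at 1000 to 2000 bp from a TSS (68 peaks), 122 at 2000 to 5000 bp (85), 117 at 5000 to 10000 bp (61) and 123 beyond (33). The share in the top regions of all 3 replicates was 32.4%, 40.0%, 29.5% and 36.4% in these bands.

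**Figure D3:**
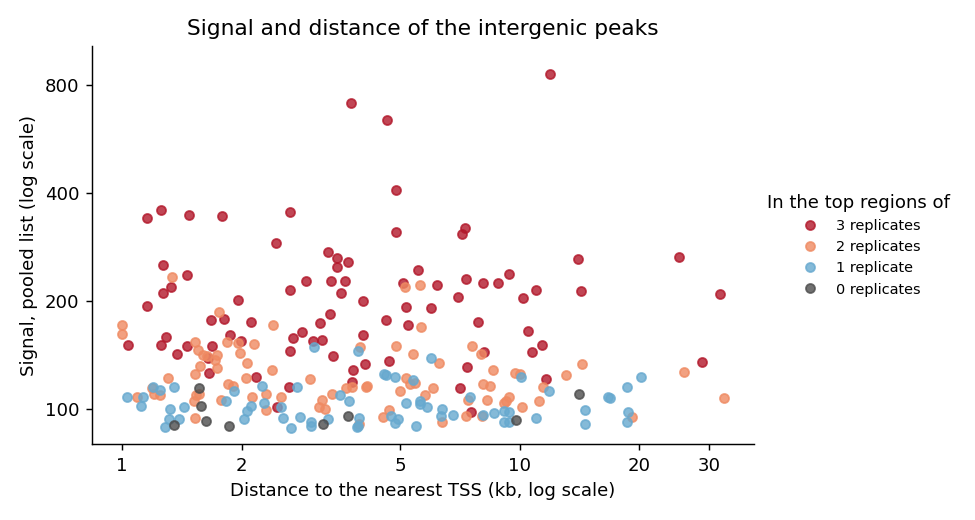
Signal of each of the 247 intergenic peaks in the optimal list (y axis, log scale) by distance to the nearest TSS (x axis, kb, log scale), coloured by the number of replicates whose top regions held it. Distances run from 1003 to 32625 bp and signals from 88.5 to 858, and the 9 peaks in the top regions of no replicate have signals of 114 or below.

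The 5 peaks farthest from any TSS lay in 3 gaps on 3L. Between NijA and CG43245, 1 was 32625 bp away (signal 107) and 1 was 31858 bp away (signal 209, ranks 383, 805 and 869 in replicates 2, 3 and 4). The peak of signal 107 ranked 913 and 2468 in replicates 2 and 3 and had no counterpart in replicate 4. Between bab1 and bab2, BTB factor genes of leg and abdomen patterning, 1 lay 28705 bp from bab1 (signal 135, ranks 1134, 850 and 1830). Beyond Tollo, 1 lay 25819 bp and 1 lay 25121 bp away. At the limit of 1000 bp, the peaks just inside were 1003 bp from lncRNA:CR45754 (signal 162), 1004 bp from lncRNA:CR45643 (171) and 1033 bp from Dad (108), and those just outside were 992 bp from ex (284), 987 bp from lncRNA:CR45234 (320) and 953 bp from asRNA:CR46264 (107).

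The intergenic peaks were most frequent on 3L and few on X. On 3L lay 87 of 247 (35.2%, exact 95% interval 29.3 to 41.5), against 23.3% of the eligible intergenic sequence, with 33.6%, 39.1% and 30.5% in the intergenic top regions of replicates 2, 3 and 4. On X lay 16 (6.48%, exact 95% interval 3.75 to 10.3), against 13.6% of the eligible sequence and 16.9% of all nuclear peaks, with 6.25%, 4.73% and 8.84% in replicates 2, 3 and 4. Per Mb of eligible sequence this was 10.4 peaks on 3L and 3.26 on X. Of all nuclear peaks on 3L 16.4% were intergenic by the rule, and of those on X 3.77%. Peaks of 1 gap are not independent, and 39 of the 87 on 3L lay in gaps with 3 or more members. Counting each gap once, 53 of 175 gaps (30.3%) lay on 3L and 15 (8.57%) on X, and without the gaps of 3 or more members, 48 of 183 peaks (26.2%) lay on 3L and 16 (8.74%) on X. The other arms held 45 peaks on 2L (18.2%), 42 on 2R (17.0%), 55 on 3R (22.3%), 2 on chromosome 4 and 0 on Y, which has 6.6% of the eligible sequence.

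**Figure D4:**
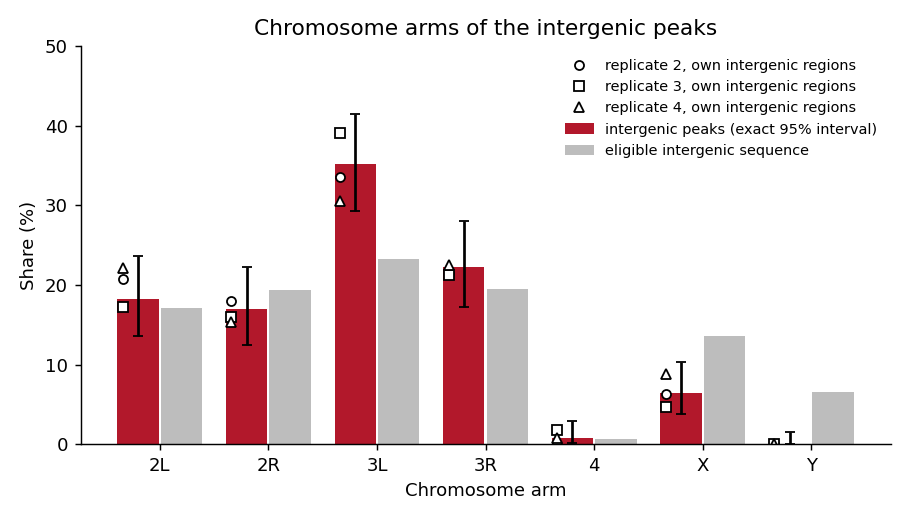
Share of the 247 intergenic peaks on each chromosome arm (red bars, exact 95% interval) beside the share of eligible intergenic sequence (grey bars), in percent, with open symbols for the intergenic top regions of each replicate. The 3 replicates lie above the grey bar on 3L and below it on X.

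Many intergenic peaks lay together. The 247 peaks fell into 175 gaps between genes: 133 gaps held 1, 25 held 2 and 17 held 3 or more, which took in 64 peaks (25.9%). The nearest other optimal summit was a median of 5637 bp away. In at least 1 replicate, 16 intergenic peaks shared their counterpart among the top regions with another optimal peak. With each replicate region counted for its strongest peak only, a setting chosen after seeing the data, 83 of 247 (33.6%) were in the top regions of all 3 replicates, against 36.7% of all nuclear optimal peaks. The gaps with 3 or more members are described next, on 3L first.

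On 3L, 11 intergenic peaks lay around emc, the gene of the helix-loop-helix protein Extramacrochaetae, which holds back proneural and differentiation factors. emc (749400 to 753492) lies inside hng3, and was not a neighbour of these peaks by nearest protein-coding TSS or by flanking gene. To its left, between CG13896 and hng3, 3 peaks lay 24.7, 23.3 and 21.3 kb before the emc start, with signals of 204, 151 and 238, each in the top regions of all 3 replicates. To its right, up to CG13898, 8 peaks lay 11 to 53.5 kb from the emc start on both sides of a pair of tRNA:Ile genes, with signals from 99.8 to 341, and 5 of the 8 were in the top regions of all 3 replicates. The strongest was the farthest of these, 1160 bp from CG13898 (ranks 211, 257 and 91). The one at 11 kb had a signal of 312 and ranked 147, 248 and 351. The pooled list held 54 weaker regions and 1 other optimal peak over the same stretch.

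**Figure D5:**
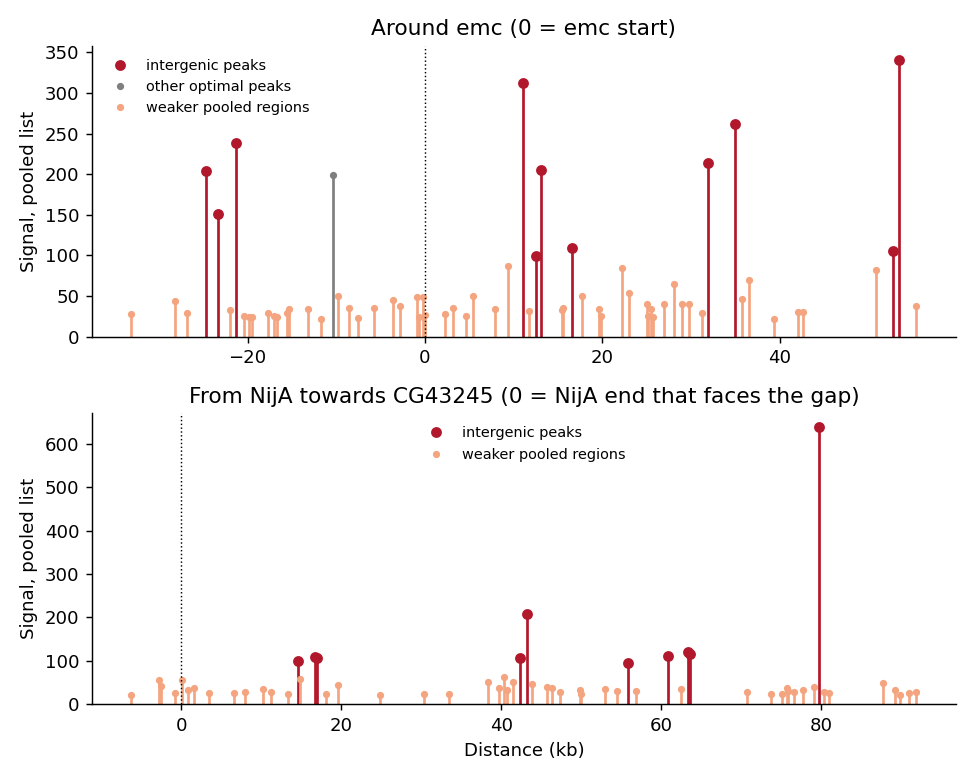
Signal in the pooled list (y axis) by distance in kb (x axis) at 2 places on 3L. The upper panel shows the stretch around emc, with distances from the emc start. The lower panel runs across the gap between NijA and CG43245 and beyond it, with distances from the end of NijA that faces the gap. Red, intergenic peaks; grey, other optimal peaks; orange, weaker regions of the pooled list. The 11 intergenic peaks around emc run from 99.8 to 341. In the lower panel those in the gap run from 94.6 to 209, and the peak of 638 at 79.7 kb lies beyond CG43245.

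The largest number in 1 gap was 9, between NijA, which encodes a ninjurin adhesion protein, and CG43245 (3L, 10696878 to 10771924). Their signals ran from 94.6 to 209, 2 of the 9 were in the top regions of all 3 replicates, and the third strongest intergenic peak of all lay just beyond CG43245. Between CG18404 and heca, the headcase gene of imaginal cells, 8 peaks lay 22.3 to 1.2 kb before the heca start (3R, signals 94.0 to 224), 2 of them in the top regions of all 3. Upstream of hry, between it and Pex7, 4 peaks had signals of 230, 98.2, 144 and 91.9, and beyond hry, up to SrpRbeta, 3 had signals of 90.7, 96.2 and 125. The gap before Pex7 and hry had 3 of 4 in the top regions of all 3 replicates, a pair of which had the same counterpart in replicates 3 and 4, and that beyond hry had 0 of 3.

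A cell death gene and a signalling gene had such groups too. Upstream of hid, a gene that starts cell death, 3 peaks (3L, 18185642 to 18196171) had signals of 225, 99.9 and 139, the strongest 5091 bp from the TSS with ranks of 155, 582 and 1327 in replicates 2, 3 and 4. In the next gap to the right, past CG7320, 3 more had signals of 94.3, 133 and 91.7. Beside sty, an inhibitor of receptor tyrosine kinase signalling, 3 had signals of 109, 161 and 142.

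On the other arms, 3 peaks lay between Qsox2 and Eip93F, the ecdysone-induced gene E93 that directs adult development at metamorphosis (3R, 21915547 to 21949113). They lay 7580, 11837 and 27292 bp before its 5′ end, in rising distance with signals of 150, 112 and 117, and 0 of the 3 were in the top regions of all 3 replicates. Before ptc, the Hedgehog receptor gene (2R), 3 had signals of 108, 171 and 112, and the strongest ranked 821, 674 and 807. Between wg and Wnt6, which encode Wnt ligands (2L), 3 had signals of 91.8, 106 and 95.8, and 0 of the 3 were in the top regions of all 3 replicates. Between RYBP, a Polycomb-associated gene, and Ppa (2R), 3 had signals of 164, 124 and 95.5, and between Su(z)2 and CG13323, 3 had signals of 115, 858 and 104. The 2 weaker ones beside Su(z)2 were each in the top regions of 1 replicate.

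Genes of imaginal disc patterning lay beside 24 intergenic peaks. The nearest protein-coding TSS belonged to such a gene for 9 of 247 intergenic peaks (3.64%), against 1.2% of all nuclear peaks and 1.77% of the grid, and 7 of the 56 listed genes were involved: bab1, ct, hh, hry, noc, ptc and wg. By the genes on both sides it was 24 peaks (9.72%) and 13 genes, against 3.41% of the grid, adding Ser, bab2, dpp, elB, eyg and fj. The grid gives the share of intergenic sequence beside these genes, since genes of this kind lie in long gaps, and the counts carry no test. hh, the Hedgehog ligand gene, had 1 peak 7397 bp from its TSS (signal 106), ct, a homeodomain gene, had 1 at 3728 bp (105), and noc had 1 on each side (136 and 133, both in the top regions of all 3 replicates). dpp, the BMP ligand gene, had 2 between it and Slh (signals 169 and 116), Ser, a Notch ligand gene, had 1 (103) and eyg, a Pax gene, had 1 (101). The peaks of hry supplied 7 of the 24.

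Ecdysone response genes neighboured few intergenic peaks, and the counts carry no test. The nearest TSS belonged to a gene of this list for 3 intergenic peaks (1.21%), against 2.55% of all nuclear peaks and 0.159% of the grid. These were 2 peaks near Eip93F and 1 that lay 1531 bp from Eip63E, a cyclin-dependent kinase gene, between it and ImpE2 (signal 125). Of the 86 intergenic peaks in the top regions of all 3 replicates, 0 had such a nearest TSS. By the genes on both sides it was 5 peaks (2.02%, against 0.374% of the grid), of which 3 lay in the 1 gap between Qsox2 and Eip93F. The 5 took in a peak between Eaf6 and Blimp-1, an ecdysone-induced repressor gene (signal 228, ranks 260, 296 and 1855). The whole list of 29, which includes br, EcR, Eip74EF and Eip75B, gave no other neighbour. BTB factor genes had 2 peaks (0.81%, against 0.916% of all nuclear peaks and 0.222% of the grid), 1 between lola and psq, 1462 bp from lola (signal 150), and the peak of bab1. By the genes on both sides, the nuclear receptor genes knrl and kni had 1 peak each (signals 159 and 128), or 0.81% against 0.533% of the grid for their list. nerfin-1, a neuronal factor gene, had 1 by that count (92.4), or 0.405% against 0.464% of the grid. Of the cell death genes hid had 2 peaks by nearest TSS (0.81%, against 0.199% of all nuclear peaks and 0.402% of the grid) and 3 by both sides (1.21%, against 0.45% of the grid). foxo, the transcription factor gene of the insulin pathway, had 1 peak 3330 bp away (signal 184, ranks 578, 770 and 856), where its list took 0.558% of all nuclear peaks and 0.104% of the grid. Antp, a Hox gene, had 1 at 25543 bp (signal 124), where the Hox list took 0.0797% of all nuclear peaks and 0.173% of the grid. Cpr12A, a cuticle protein gene, had 1 at 2272 bp (signal 104), where its list took 0.0398% of all nuclear peaks and 0.409% of the grid. A list with 1 peak has 0.405% of the 247. The autophagy (20 genes), heat shock (17), salivary glue and 71E (21), fat body storage (10) and histone (115) lists had 0 neighbours by either count. By nearest TSS these lists took between 0 and 0.199% of all nuclear peaks and between 0.00693% and 0.118% of the grid, under 1 peak in 247 for each, so a count of 0 does not set the intergenic peaks apart.

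The intergenic peaks lay in unique sequence. Of the 247, 0 lay in an annotated mobile element, 0 had another copy in the assembly with at least 90% identity over at least 100 bp, and 4 were soft-masked as repeats over more than 50% of their length. Their median soft-masked share was 17.3%, and 25.6 of the 36.1 Mb of eligible sequence was not soft-masked. The shares of eligible sequence in mobile elements or with copies were not computed. How reads with several placements were handled is unknown, so these counts may reflect the processing. The peak width was at the list's limit of 404 bp in 206 of them (83.4%).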

How the data were processed

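Tagged Broad was mapped by chromatin immunoprecipitation and sequencing in 3 replicates of 1 group. The authors deposited ranked region lists: 1 of 30000 regions per replicate, 1 of 27389 regions called on the replicates pooled, and the 2533 optimal peaks kept by an irreproducible discovery rate, which were identical to the head of the pooled list by signal. The signal value, the −log10 q-value and the summit offset of each region are the authors' deposited values, and no source used here names the peak caller, the aligner or the scaling of the signal. Read depth is unknown, so intervals on shares cover counting error only.

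Genes and TSSs came from Ensembl release 115 on BDGP 6.54, without transposable elements and pseudogenes, and bases from RefSeq's release of that assembly, whose chromosomes held all regions. Coordinates are 1-based dm6 positions. Regions of 2 lists were counterparts when their summits lay within 200 bp. Words were sought up to 100 bp from the summit, and their direction was read up to 200 bp from it. Eligible sequence (36.1 Mb) is intergenic, without N and more than 1000 bp from any TSS. Copies were sought with blastn 2.17.0. Over the 3 replicates, exact two-sided sign-flip permutation tests were run with Benjamini-Hochberg adjustment, and the smallest p they allow is 0.25. All 246 symbols of the named lists matched, 8 after renaming. Steps were tested on simulated data.

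The members, lists, words and tests were chosen with earlier results of these data known, and TCTCAGTG, TCAGTGCA, TCAGTG and ATATAAG were picked after the windows had been searched. Named are the 25 strongest members, those whose neighbours are on a list, gaps with 3 or more members, the 5 farthest from a TSS and the 3 on either side of the limit. emc, which lies between such gaps, was named for its position only.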

Additional observations from a re-analysis of the deposited data

How the results depend on the processing

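Over 267 recomputed values, 214 stayed within their exact 95% interval, the SD over replicates or 1.5 times the count, and 53 did not. The rule gave 247 members, 301 with a TSS distance of 500 bp, 179 with 2000 bp, 328 with protein-coding genes only and 242 with all annotated genes. The share of TCAGTG copies that read away from the summit ran from 79.4% to 83.6% over 6 alternatives chosen after seeing the data, against 81.4% as reported.

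Members in the top regions of all 3 replicates were 34.8%, and became 17.0% with 50% as many top regions and 89.9% with all regions of each list, and 40.9% to 53.0% without 1 replicate, where 2 replicates have to hold the peak. Windows reaching 50 bp are shorter, and in them CTATTT was in 8.1%, AAACTA in 11.7%, AAAAAAAA in 8.5%, CACACACA in 0.405%, TAATTA in 5.67%, TCTCAGTG in 3.24%, TCAGTGCA in 2.43%, TCAGTG in 10.5% and ATATAAG in 5.67% of members, with 33.9% G and C. TCTCAGTG was in 13.6% of members among the upper 50% of optimal peaks by signal and in 14.0% of those found in all 3 replicates. The share of members beside imaginal disc genes was 9.72% by both flanking genes. On 3L lay 26.2% without gaps of 3 or more members, a setting also chosen after seeing the data. The cause of these shifts was not tested. Words, lists and arms with under 10 members moved in 35 values, of which 34 were at 0. No paired analysis was possible because there was 1 group of samples. How far read depth limits the lists is unknown.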

Other observations

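The X chromosome held 16 intergenic peaks, described here after their values were seen. The strongest lay 2905 bp from CG3847 (signal 228, ranks 236, 701 and 691 in replicates 2, 3 and 4). Another lay 1957 bp from Atf3, a bZIP factor gene (ranks 1352, 1687 and 206), and another 1655 bp from Myc, the growth regulator gene, between it and dnc (signal 126, ranks 2186, 1021 and 1496). A peak 1308 bp from NetB, a netrin gene, had a signal of 122, and a peak between upd3 and upd1, which encode ligands of the JAK and STAT pathway, had a signal of 117. Of the 16, 5 were held by the top regions of all 3 replicates. On chromosome 4, 1 of the 2 intergenic peaks lay 3919 bp from zfh2, a homeodomain zinc finger gene (signal 89.6). Away from X, a peak 3366 bp from CycB, the cyclin B gene, had a signal of 228 and ranked 465, 591 and 411 in the replicates.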
